A study of Mus musculus with 12 samples.

Results

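Transcripts of 10 transcription factors of striatal projection neurons, namely Rarb, Ebf1, Meis2, Foxp1, Zfp503, Six3, Isl1, Sp9, Dlx5 and Dlx6, were followed in bulk RNA sequencing of mouse brain cortex after binge-like drinking and abstinence. The genes were chosen by symbol, and all 10 were found among the 33024 gene symbols counted. The C57BL/6 mice were 30 days old at the start of a 35-day two-bottle choice drinking-in-the-dark paradigm, in which ethanol-administered mice (EtOH, n = 5) chose each night for 12 h between water and 20% (v/v) ethanol. Vehicle controls (Control, n = 7) had water in both bottles. Both groups then passed 14 days without ethanol and went through a set of behavioural tests, swimming tests among them, before the cortex was harvested. The ethanol was freely chosen, and the intake of the sequenced mice was not analysed here. Total counts lay between 31768076 and 42183029 per mouse, where the deepest library of each group, Control 5 and EtOH 1, stood apart from the rest.

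Striatal projection neurons, also called medium spiny neurons, are GABAergic cells that arise in the lateral ganglionic eminence of the embryo and form the direct (Drd1) and indirect (Drd2) output pathways of the striatum. Their identity is set by a cascade of DNA-binding proteins, in which DLX homeodomain proteins drive the GABAergic programme, SP9 and SIX3 direct cells towards the indirect pathway, and ISL1 and EBF1 act in the direct pathway. Several of these factors are also used outside the striatum. Foxp1 and Meis2 are expressed in subsets of cortical neurons, the Dlx and Sp9 genes in cortical interneurons, Isl1 in cholinergic neurons, and Ebf1 in cells of the vessel wall.

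Of the 10 transcripts, 9 were lower in the ethanol-administered mice and none was higher (edgeR quasi-likelihood test, adjusted p under 0.05 over all genes and log2 fold change above 0.5 in size). Across the whole table, 8.29% of the 16059 genes tested were called, 4.09% lower and 4.20% higher. The members' median log2 fold change was -1.20, against 0 for all genes tested. The same 9 members were below every Control mouse in every ethanol-administered mouse, and no member was above every Control mouse in every EtOH mouse. Of all genes tested, 4.96% were separated in the lower and 4.84% in the higher direction. All 10 log2 fold changes were negative, so that by necessity none was higher at an unadjusted p under 0.05 either. The number of members called higher was also 0 with DESeq2 or limma voom. The size of the difference varied widely among the members, from 1.52-fold for Foxp1 to 38.8-fold for Six3 among those called. In bulk tissue, fewer cells of a type and less RNA per cell cannot be told apart. Levels are given throughout as CPM, the read counts scaled to the library size after TMM normalization.

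**Figure D1:**
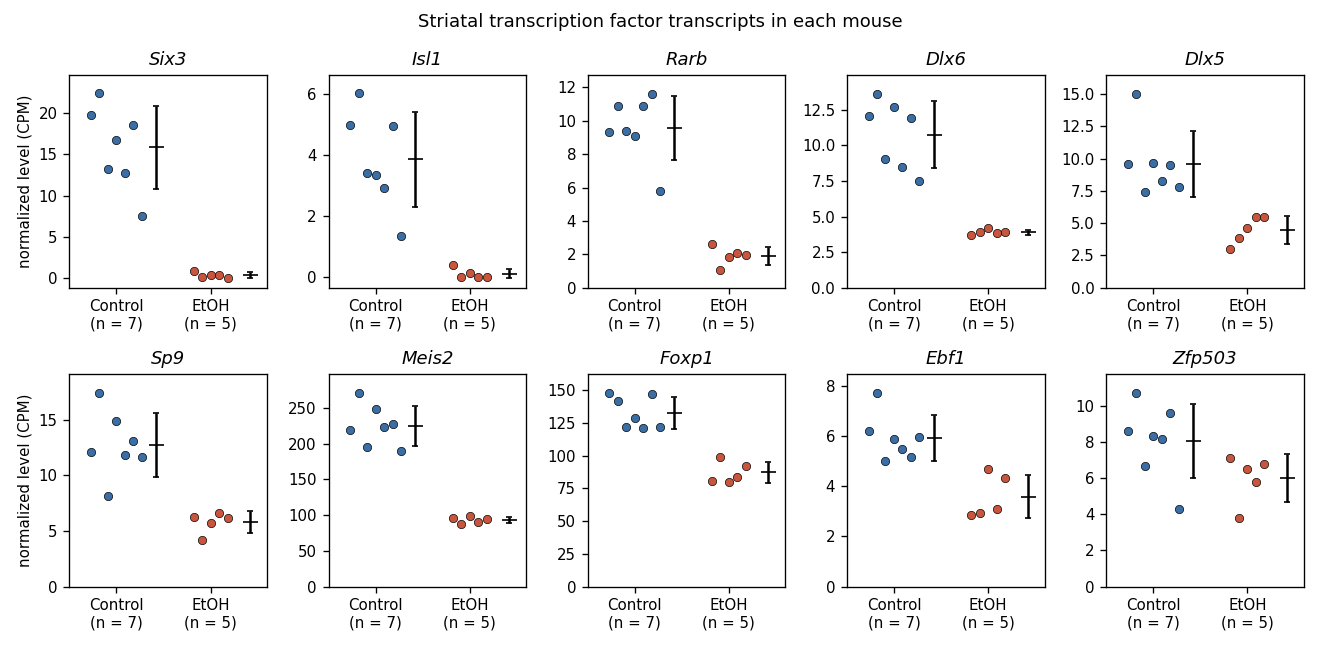
Normalized level (CPM, vertical axes, each panel with its own scale) of the 10 transcripts in each of 7 Control and 5 EtOH mice (points), with the mean and SD beside each group. The groups do not overlap in any panel but that of Zfp503, and Six3 and Isl1 lie close to 0 in all EtOH mice.

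The cortex label was checked against marker lists. The 10 markers of cortical excitatory neurons had a mean level between 6.40 and 6.75 (log2 CPM) in the Control mice and between 6.58 and 6.77 in the EtOH mice. Effector genes of spiny neurons were also abundant in Control mice, with a summed level of 2450 to 4720 CPM over 15 genes, against 1140 to 1320 CPM in EtOH mice. Control 7 had the lowest mean level of these effectors among the Control mice (6.58 in log2 CPM, others 7.06 to 7.74). Without Control 7, all 10 members were called lower.

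Six3, Isl1 and Rarb showed the greatest fold differences of the 10. Their promoters are shown with that of Zfp503, the member that was not called. Each line gives 250 bases before the RefSeq transcription start, 5′ to 3′ on the gene's own strand, with matches to the searched motifs in capitals. Searched on both strands were the retinoic acid response element (GGTTCA and AGTTCA with 5 bases between them), the homeodomain core TAATTA, the MEIS site TGACAG, the forkhead site TGTTTAC, the EBF site (TCCC and GGGA with 2 bases between them) and the GC box GGGCGG. The regions were placed in GRCm39 by exact match and lie at chr17:85928012-85928261 on the plus strand for Six3, chr13:116446225-116446474 on the minus strand for Isl1, chr14:5894037-5894286 on the plus strand for Rarb and chr14:22039670-22039919 on the minus strand for Zfp503.
Six3: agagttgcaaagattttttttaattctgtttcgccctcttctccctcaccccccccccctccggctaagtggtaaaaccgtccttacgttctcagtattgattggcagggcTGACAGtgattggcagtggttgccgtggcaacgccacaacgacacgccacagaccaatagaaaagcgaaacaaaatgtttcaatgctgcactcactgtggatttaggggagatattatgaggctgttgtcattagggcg
Isl1: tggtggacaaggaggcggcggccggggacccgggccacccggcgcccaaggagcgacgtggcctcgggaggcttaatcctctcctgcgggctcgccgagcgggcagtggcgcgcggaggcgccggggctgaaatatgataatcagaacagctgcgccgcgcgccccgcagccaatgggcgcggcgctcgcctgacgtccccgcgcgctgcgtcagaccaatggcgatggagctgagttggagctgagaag
Rarb: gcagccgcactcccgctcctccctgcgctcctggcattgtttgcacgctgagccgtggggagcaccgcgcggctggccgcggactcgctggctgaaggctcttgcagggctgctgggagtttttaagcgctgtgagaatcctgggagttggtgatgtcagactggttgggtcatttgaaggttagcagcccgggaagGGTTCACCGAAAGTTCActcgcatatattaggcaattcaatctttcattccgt
Zfp503: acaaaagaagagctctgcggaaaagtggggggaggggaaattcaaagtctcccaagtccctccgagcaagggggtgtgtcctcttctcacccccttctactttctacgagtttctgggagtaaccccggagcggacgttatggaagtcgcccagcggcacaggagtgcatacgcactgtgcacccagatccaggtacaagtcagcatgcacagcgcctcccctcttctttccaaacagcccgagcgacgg
The capitals in the Rarb promoter are a direct repeat that matches the retinoic acid response element, from base -53 to base -37 before the start. It is known as a site through which retinoic acid receptors act on Rarb itself. Among 32851 RefSeq promoters of the same length, 2 held this motif (0.00609%), those of Rarb and of a predicted non-coding gene, Gm52524. The half-sites were searched only in these letters, which are those of the Rarb element itself. The match in Rarb was therefore fixed in advance, and the share does not count other forms of the element. The capitals in the Six3 promoter, from base -139 to base -134, are a MEIS site, which 15.9% of all promoters held. No searched motif was found in these windows of Isl1 and Zfp503. Of the other members with a RefSeq promoter, Sp9 held a GC box. Foxp1 has 3 windows in RefSeq, of which 1 held the homeodomain core and a MEIS site and the other 2 held GC boxes. The homeodomain core was found in 4.84%, the GC box in 32.7%, the forkhead site in 3.17% and the EBF site in 0.779% of all promoters.

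Six3, a homeodomain factor known for the generation of indirect pathway neurons, lies on chromosome 17 of GRCm39 from 85920640 to 85936730. Its level in Control mice had a lowest value of 7.50, a median of 16.7 and a highest value of 22.4 CPM. In EtOH 1 to EtOH 5 it was 0.881, 0.124, 0.477, 0.425 and 0 CPM. Every EtOH mouse was far below the lowest Control mouse, and 1 had no count. Six3 thus had a log2 fold change of -5.28 (standard error, SE, 0.40, adjusted p = 7.44e-08 by edgeR). Without EtOH 1, the mouse with the highest value of its group, it was -5.92.

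Its antisense neighbour Six3os1 shares 205 exonic bases with Six3 and, since the strand setting of the counting is not given in the sources used here, reads there cannot be assigned with certainty. Six3os1 was also called lower, from 1.31 to 5.73 CPM in Control mice to 0 to 0.716 CPM in EtOH mice, with a log2 fold change of -3.92 (adjusted p = 6.15e-05 by edgeR).

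Isl1 encodes a LIM homeodomain factor of direct pathway neurons and of cholinergic neurons, on chromosome 13 from 116434817 to 116446235. Control mice ranged from 1.35 to 6.04 CPM with a median of 3.41 CPM. In EtOH 1 to EtOH 5 there were 16, 0, 4, 0 and 0 counts, or 0.371, 0, 0.119, 0 and 0 CPM. Thus 3 of the 5 EtOH mice had no count, where 3 counts, taken as the limit of detection, correspond to 0.0695 to 0.0933 CPM in the EtOH libraries. For Isl1 this gave a log2 fold change of -5.06 (SE 0.57, adjusted p = 6.23e-06 by edgeR), which became -6.82 without EtOH 1, which held most of the EtOH counts. Values for so few counts depend on how the fit treats zeros, and limma voom gave -6.29.

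As Isl1 and Lhx8 together mark cholinergic neurons, a list of 7 cholinergic genes was read beside it. All 6 that passed the expression filter were called lower, with a median log2 fold change of -3.79, which stayed at -3.79 with Lhx8 set to its limit of 3 counts per library. Chat, the acetylcholine-synthesizing enzyme, had 4.59 ± 1.78 CPM (SD, n = 7) in Control and 0.236 ± 0.153 CPM (SD, n = 5) in EtOH mice. Slc5a7, the choline transporter, was 8.33-fold lower (log2 fold change -3.06, adjusted p = 4.61e-08 by edgeR). Lhx8 had 1.76 ± 0.858 CPM (SD, n = 7) in Control mice and no count in any EtOH mouse. The summed level of the list was 9.97 to 29.7 CPM in Control and 1.43 to 2.12 CPM in EtOH mice, and its part in the Isl1 result was not tested.

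Rarb, a nuclear receptor for retinoic acid that is concentrated in the striatum, lies on chromosome 14 from 5650540 to 6041094. In Control mice its lowest value was 5.77, its median 9.41 and its highest 11.6 CPM. EtOH 1 to EtOH 5 had 2.62, 1.06, 1.82, 2.06 and 1.95 CPM. The groups stood apart, although the lowest Control value, that of Control 7, was well below the other 6. Rarb was 4.99-fold lower, a log2 fold change of -2.32 (SE 0.19, adjusted p = 2.34e-07 by edgeR). Exons of Rarb share 2612 bases with those of Top2b on the opposite strand, where the same limit holds, and Top2b had a log2 fold change of 0.04 (adjusted p = 0.659 by edgeR).

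Among the other receptors of the retinoid family, Rxrg, a partner of RARB, was called lower, from 33.6 ± 9.20 CPM (SD, n = 7) in Control to 5.54 ± 3.12 CPM (SD, n = 5) in EtOH mice, or by -2.60 on the log2 scale (SE 0.29, adjusted p = 6.65e-06 by edgeR). Rara and Rarg had log2 fold changes of -0.07 and -0.05 (adjusted p = 0.641 and 0.743 by edgeR). Rxrb was below every Control mouse in 5 of 5 EtOH mice, but its log2 fold change of -0.30 was under the required size. Rxra had a log2 fold change of 0.18 (adjusted p = 0.0663 by edgeR).

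Of 12 genes that make, carry or break down retinoic acid, 11 were tested, of which 2 were called lower and none higher (median log2 fold change -0.27). These were Crabp1, a cellular retinoic acid binding protein (log2 fold change -2.15, adjusted p = 0.000576 by edgeR), and Aldh1a3, an enzyme of retinoic acid synthesis (log2 fold change -0.72, adjusted p = 0.0296 by edgeR). Both were expressed at low levels, with Control means of 1.38 and 1.35 CPM.

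Dlx5 and Dlx6 encode homeodomain factors of the ventral forebrain. They lie next to each other on chromosome 6 in opposite orientation, Dlx6 from 6862989 to 6868568 and Dlx5 from 6877804 to 6882092, with 9235 bases between them. Dlx6 had a lowest value of 7.47, a median of 11.9 and a highest value of 13.6 CPM in Control mice, while EtOH 1 to EtOH 5 had 3.69, 3.95, 4.17, 3.85 and 3.89 CPM. The EtOH mice were tightly grouped, with a coefficient of variation of 4.53%, against 22.1% in the Control mice. On the log2 scale Dlx6 differed by -1.46 (SE 0.14, adjusted p = 1.33e-06 by edgeR).

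For Dlx5, the lowest, median and highest Control values were 7.39, 9.50 and 15 CPM. EtOH 1 to EtOH 5 had 2.97, 3.86, 4.62, 5.46 and 5.47 CPM. The groups did not overlap, and the highest Control value, that of Control 2, was well above the others. On the log2 scale Dlx5 differed by -1.1 (SE 0.18, adjusted p = 0.000295 by edgeR), and -0.96 without Control 2.

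The ratio of Dlx5 to Dlx6 counts was 0.757 to 1.1 in Control and 0.805 to 1.42 in EtOH mice, so that the ranges overlapped. By contrast, the ratio of Dlx6 to Dlx6os1, a long non-coding RNA that spans Dlx6 on the opposite strand without sharing its exons, was 0.397 to 0.605 in Control mice and 0.222 to 0.312 in EtOH mice. These ranges did not overlap. Another transcript, Dlx6os2, shares 104 exonic bases with Dlx6 on the opposite strand and had at most 0.417 CPM in any mouse. Dlx6os1 itself had 15.3 to 24.4 CPM in Control and 12.7 to 16.6 CPM in EtOH mice, a log2 fold change of -0.50 that narrowly missed the size required for a call (SE 0.11, adjusted p = 0.00366 by edgeR).

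Sp9, a zinc finger factor of the same lineage, lies on chromosome 2 from 73102269 to 73115050. Control mice had a lowest value of 8.11, a median of 12.1 and a highest value of 17.4 CPM. EtOH 1 to EtOH 5 had 6.26, 4.20, 5.72, 6.61 and 6.20 CPM, all below the Control range. Sp9 was 2.19-fold lower, or -1.13 on the log2 scale (SE 0.16, adjusted p = 5.24e-05 by edgeR). Exons of Sp9 share 270 bases with those of Cir1 on the opposite strand, where reads cannot be assigned with certainty, and Cir1 had a log2 fold change of 0.12 (adjusted p = 0.399 by edgeR). The Sp9 relative Sp8 was also called lower (log2 fold change -1.77, SE 0.31, adjusted p = 0.000594 by edgeR), with Control mice between 2.49 and 11.2 CPM and EtOH mice between 1.49 and 2.28 CPM. Of the other Dlx genes, Dlx2 was called lower (log2 fold change -0.59, adjusted p = 0.00115 by edgeR), whereas Dlx1 had a log2 fold change of -0.22 (adjusted p = 0.0935 by edgeR).

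Since Dlx5, Dlx6 and Sp9 are also transcribed in interneurons, 10 genes of interneurons and of the GABAergic phenotype were examined. Of these, 4 were called lower and none higher (median log2 fold change -0.31). The 4 were Slc32a1, the vesicular GABA transporter, with a log2 fold change of -0.77, Npy with -0.77, Gad2 with -0.63 and Lamp5 with -0.51. Slc32a1 and Gad2 are used by all GABAergic neurons, spiny neurons included. Adarb2 and Lhx6, named after their values had been seen, had log2 fold changes of 0.43 (adjusted p = 0.00675 by edgeR, under the size required for a call) and 0.03 and were not called. Gad1, Pvalb, Sst and Vip, also named after their values had been seen, had log2 fold changes of -0.31, -0.31, -0.23 and -0.21. None of these was called, although Gad1 was below every Control mouse in 5 of 5 EtOH mice (adjusted p = 0.00397 by edgeR). The mean level of the list was 6.25 to 6.46 (log2 CPM) in Control and 5.95 to 6.16 in EtOH mice. The part of interneurons in the Dlx and Sp9 values was not tested.

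Meis2, a homeodomain factor of the TALE class, was the most abundant member. It lies on chromosome 2 from 115693062 to 115896341. Control mice had a lowest value of 190, a median of 223 and a highest value of 271 CPM. EtOH 1 to EtOH 5 had 96.2, 87.4, 98.7, 89.9 and 94.6 CPM, all far below the Control range. Meis2 had the smallest p of the 10 members, with a log2 fold change of -1.27 (SE 0.08, adjusted p = 8.2e-09 by edgeR). An antisense transcript that shares 716 exonic bases with it, with the same limit, G630016G05Rik, was also called lower (log2 fold change -0.98, adjusted p = 0.000594 by edgeR). Among its relatives and partners, Pbx3 was called lower (log2 fold change -1.70, adjusted p = 1.13e-06 by edgeR), as was Meis1 (log2 fold change -0.78, adjusted p = 0.0079 by edgeR). Pbx2 and Meis3 had log2 fold changes of -0.03 and 0.02 and were not called.

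Foxp1, a forkhead factor present in spiny neurons and in cortical projection neurons, lies on chromosome 6 from 98902299 to 99499685. Control mice had a lowest value of 121, a median of 129 and a highest value of 148 CPM. EtOH 1 to EtOH 5 had 80.9, 98.8, 79.9, 84.1 and 92.5 CPM, below every Control mouse. Foxp1 was 1.52-fold lower, or -0.61 on the log2 scale (SE 0.07, adjusted p = 1.24e-05 by edgeR), the smallest in size among the 9 members called. Its relative Foxp2 differed more in fold, with 26.5 ± 5.37 CPM (SD, n = 7) in Control and 11.5 ± 2.29 CPM (SD, n = 5) in EtOH mice (log2 fold change -1.21, adjusted p = 1.43e-05 by edgeR). The ratio of Foxp1 to Foxp2 counts was accordingly 4.57 to 6.35 in Control and 6.88 to 9.12 in EtOH mice, without overlap. Foxp4 had a log2 fold change of 0.09 (adjusted p = 0.384 by edgeR).

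Ebf1, a helix-loop-helix factor of direct pathway neurons, lies on chromosome 11 from 44508138 to 44898918. The lowest, median and highest Control values were 5.02, 5.88 and 7.72 CPM. EtOH 1 to EtOH 5 had 2.87, 2.92, 4.68, 3.09 and 4.32 CPM. The groups came close to each other but did not overlap. Ebf1 was 1.66-fold lower, or -0.73 on the log2 scale (SE 0.15, adjusted p = 0.00188 by edgeR). Its relative Ebf4 was called higher, from 8.99 to 12.9 CPM in Control to 16.5 to 18.4 CPM in EtOH mice (log2 fold change 0.66, adjusted p = 3.55e-05 by edgeR). Ebf2 and Ebf3 reached at most 1.12 and 1.24 CPM in any mouse and were not called. Of the 8 pericyte and endothelial markers, among the cells known to use Ebf1, none was called in either direction (median log2 fold change 0.01). The B-cell markers, another Ebf1 lineage, summed to less than 1 CPM in every mouse.

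Zfp503, a zinc finger factor of the developing striatum, lies on chromosome 14 from 22033983 to 22039669. It had a lowest value of 4.30, a median of 8.31 and a highest value of 10.7 CPM in Control mice, whereas EtOH 1 to EtOH 5 had 7.09, 3.80, 6.50, 5.76 and 6.78 CPM. The groups overlapped, and only EtOH 2 lay below every Control mouse. The log2 fold change was -0.42 (SE 0.19, approximate 95% interval -0.79 to -0.06, adjusted p = 0.108 by edgeR). The lowest Control value was that of Control 7, without which the log2 fold change was -0.53 (adjusted p = 0.0173 by edgeR) and the gene was called lower. Its relative Zfp703 had a log2 fold change of -0.24 (adjusted p = 0.00629 by edgeR), under the size required for a call.

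**Figure D2:**
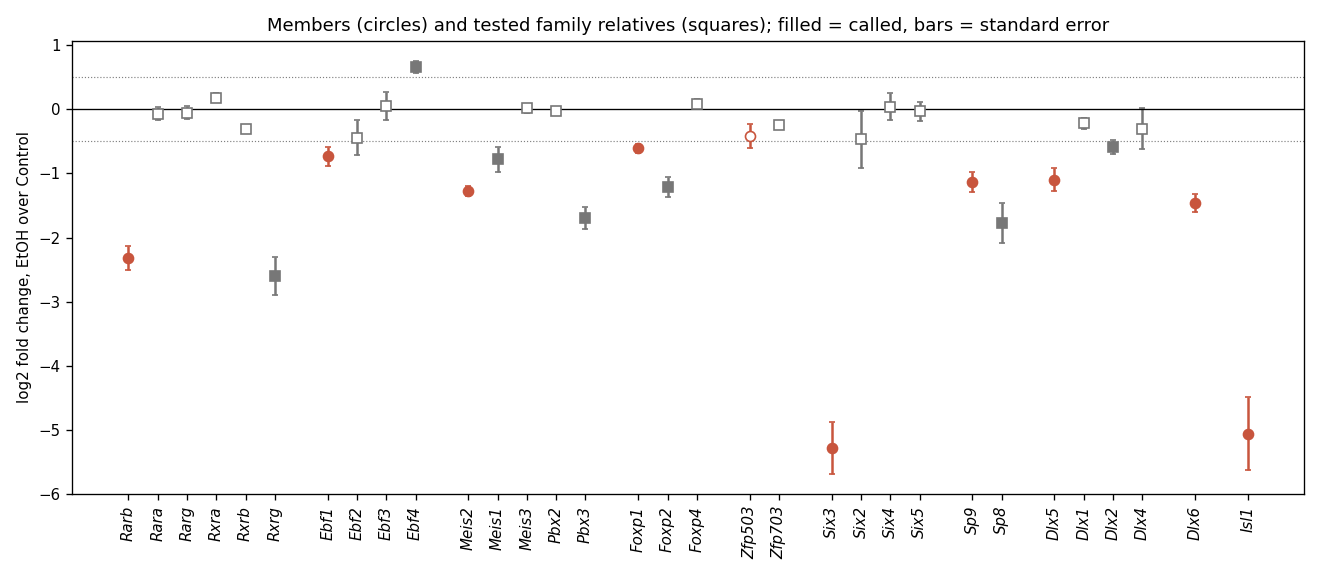
Log2 fold change of EtOH over Control (vertical axis; bars, standard error) for the 10 members (circles) and tested family relatives (squares), with filled symbols for called genes and dotted lines at -0.5 and 0.5. Relatives of a member lie on either side of 0, with Rxrg, Sp8 and Pbx3 the lowest and Ebf4 the only relative called higher.

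Of the 27 family relatives, 24 were tested, of which 6 were called lower, 1 was called higher and 17 were not called. Their median log2 fold change was -0.17, and their mean level was 3.10 to 3.47 (log2 CPM) in Control and 2.62 to 3.06 in EtOH mice, without overlap. Six2, Six4 and Six5 were tested and not called, and Six6, Isl2 and Dlx3 did not pass the expression filter. Of 11 further transcription factors of the lineage, 10 were tested. The zinc finger gene Zic1 was called lower (log2 fold change -1.11, adjusted p = 0.000296 by edgeR). Bcl11b, known as CTIP2 and expressed in spiny neurons and deep layer cortical neurons, was below every Control mouse in 5 of 5 EtOH mice with a log2 fold change of -0.45 (adjusted p = 0.00177 by edgeR). It was named after its values had been seen.

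Levels were then set per length, as RPKM over the merged exons of each gene. In Control mice, Meis2 (17.3 ± 2.18 RPKM, SD, n = 7) was above Foxp1 (8.22 ± 0.776 RPKM, SD, n = 7), which was above Dlx5 (4.22 ± 1.13 RPKM, SD, n = 7), and these ranges did not overlap. Dlx6, Six3, Sp9, Zfp503, Rarb, Isl1 and Ebf1 followed, and each had a range that overlapped that of its neighbour in this order. The last of them, Ebf1, had 0.606 ± 0.0926 RPKM (SD, n = 7). In EtOH mice, Meis2 (7.20 ± 0.356 RPKM, SD, n = 5) and Foxp1 (5.4 ± 0.504 RPKM, SD, n = 5) remained the highest. Six3, in the middle of the Control order at 2.85 ± 0.901 RPKM (SD, n = 7), was next to last in EtOH mice at 0.0683 ± 0.0615 RPKM (SD, n = 5), above Isl1 at 0.0247 ± 0.0406 RPKM (SD, n = 5). Zfp503 was below Six3 and Sp9 in the Control order and above both in the EtOH order, at 1.36 ± 0.299 RPKM (SD, n = 5), although its range overlapped that of Sp9 and it was above Sp9 in 4 of 5 EtOH mice.

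**Figure D3:**
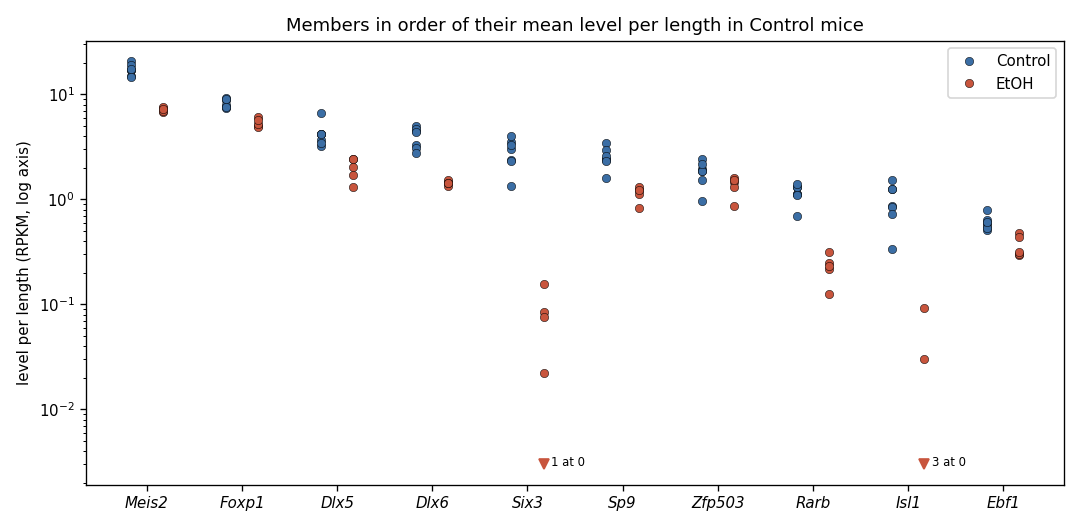
Level per length (RPKM, log axis) of each member in 7 Control and 5 EtOH mice (points), ordered by the Control mean, with triangles at the lower edge for mice without counts. Meis2 and Foxp1 are highest in both groups, while Six3 and Isl1 fall from the middle and lower ranks of the Control order to the lowest levels in EtOH mice.

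Mice of the Control group also differed among themselves. Control 7 had the lowest value of its group for 6 of the 10 members, and Control 2 had the highest value for 8 of the 10. Relative to the mean of the other 6 Control mice, Control 7 had 31.5% of Isl1, 43.4% of Six3, 49.6% of Zfp503, 56.5% of Rarb and 66.1% of Dlx6. It had 78.8% of Dlx5, 82.2% of Meis2, 90.2% of Foxp1 and 101% of Ebf1, with Sp9 close to Foxp1. Hence the 3 members with the greatest fold difference between the groups were among the 4 that were lowest in Control 7, the other being Zfp503. The coefficient of variation within the Control group was highest for Isl1 (40.9%) and Six3 (31.7%) and lowest for Foxp1 (9.44%). In the EtOH group, EtOH 1 had 343% of the Six3 level and 1240% of the Isl1 level of the other 4 mice, although the latter rests on 16 counts.

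The effector genes of spiny neurons were read beside the factors. All 15 were called lower, with a median log2 fold change of -2.54. Drd2, the dopamine receptor of the indirect pathway, had a log2 fold change of -4.97, Rgs9 of -3.13, Gpr6 of -2.84 and Ppp1r1b, which encodes DARPP-32, of -2.63. Only Six3 and Isl1 among the members had log2 fold changes below -3, as did 0.268% of all genes tested. Rarb lay near the effectors' median, and the other 7 members had log2 fold changes between -1.46 and -0.42. Of 10 cortical excitatory neuron markers, none was called lower and 1 was called higher, Fezf2 (log2 fold change 0.60), with a median of 0.08 for the list. Of 8 hippocampal markers, 7 were called higher (median log2 fold change 2.71), with a mean level of 1.07 to 1.55 (log2 CPM) in Control and 3.26 to 4.26 in EtOH mice. Of 6 thalamic markers, 1 was called higher and none lower, and of 6 markers of immature neurons, 2 were called lower and 1 higher. The part of these cell populations in the levels of the transcription factors was not tested.

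**Figure D4:**
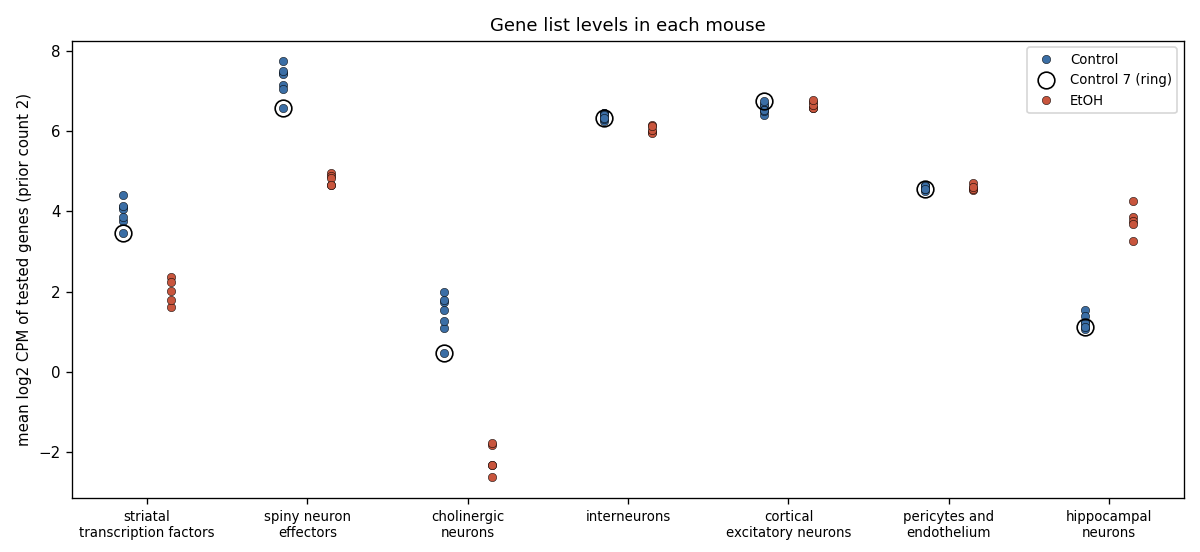
Mean log2 CPM (vertical axis) of the tested genes of 7 lists in 7 Control and 5 EtOH mice (points), with Control 7 ringed. The 10 transcription factors, the spiny neuron effectors, the cholinergic genes and the interneuron genes are lower in every EtOH mouse than in every Control mouse, the hippocampal genes are higher in every EtOH mouse, and the cortical excitatory neuron genes and the pericyte and endothelial genes overlap between the groups.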

How the data were processed

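Bulk RNA of mouse brain cortex was sequenced by BGI from 7 Control and 5 EtOH mice. The authors checked reads with FastQC 0.11.9, aligned them with STAR to GRCm39 (Gencode Release 28), counted them with featureCounts, and deposited expected counts per gene symbol without normalization. Values of 61 symbols, none of them a member, were not whole, and all were rounded. All columns were matched to mice by name.

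Genes were filtered with filterByExpr and groups compared with edgeR's quasi-likelihood test after TMM scaling, with Benjamini-Hochberg adjustment over 16059 genes (R 4.3.3, edgeR 4.0.16, limma 3.58.1, DESeq2 1.42.0). Called genes had an adjusted p under 0.05 with a log2 fold change beyond 0.5 in either direction, as in the study. The SE is the log2 fold change divided by the square root of F. List levels are means of log2 CPM (prior count 2). The fits were tested on simulated data. Replicates of a group differed by more than counting error (chi-square per degree of freedom at least 7.77).

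Positions and merged exon lengths are from Gencode mouse release 39 (GRCm39). Promoters are from RefSeq (8 of 10 members matched) and were placed in GRCm39 by sequence.

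The members and lists were chosen with earlier results of these data known. Some list genes are not reported here by name. All members and family relatives could be named, and of each other list up to 4 called genes per direction with the smallest adjusted p. Alternatives were DESeq2, limma voom, relative log expression factors, other count filters and fold minimums, the replicate block, the deepest libraries left out and each mouse left out.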

Additional observations from a re-analysis of the deposited data

Results flagged for a closer look

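By Dixon's test, 1 mouse lay apart from its group in 4 of 22 comparisons of a member's CPM or of total counts, where chance gives about 1.1. Control 7 had the lowest Rarb level, 5.77 CPM, with the next Control mouse at 9.10 CPM, and without it the log2 fold change of Rarb was -2.41. Control 2 had the highest Dlx5 level, 15 CPM, with the next at 9.63 CPM, and without it the log2 fold change of Dlx5 was -0.96. Control 5 had 40690223 counts and EtOH 1 had 42183029, where the next libraries of their groups had 32356913 and 33313165. With both of these libraries left out, 9 members were called lower.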

How the results depend on the processing

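Between 7 and 10 of the 10 members were called lower under all alternatives, and none was called higher under any. Only 7 were called with at least 10 counts in every mouse, a filter that Six3 and Isl1 do not pass because of EtOH mice without counts, and with a log2 fold change above 1 in size. All 10 were called without Control 7 and when Control 7 and EtOH 1 were left out together, an alternative chosen after seeing the data. The member that changed its call was Zfp503, at -0.53 on the log2 scale (adjusted p = 0.0173 by edgeR) without Control 7 and -0.60 (adjusted p = 0.017 by edgeR) without both. Over all alternatives, its adjusted p lay between 0.017 and 0.222. The cause was not tested. Over the fits with 1 mouse left out, the log2 fold change ranged from -6.82 to -4.77 for Isl1 and from -5.92 to -4.98 for Six3, both at their lowest without EtOH 1. Over all genes, 657 were called lower and 674 higher, or 1863 and 1947 with no minimum fold change and 282 and 242 with a log2 fold change above 1 in size. With 1 mouse left out, 586 to 727 were called lower and 576 to 783 higher.

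The replicate number is a number within each group of different mice. Same-numbered mice did not deviate together (correlation of their deviations from the group means over genes between -0.108 and 0.0182). These values show no pairing by number but cannot exclude a handling step shared by same-numbered mice. With the replicate block, 9 members were called lower, and 634 genes lower and 690 higher. At these depths, 3 counts correspond to 0.0695 to 0.0962 CPM, which limits Isl1 and Six3 in the EtOH mice.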
